A study of Mus musculus with 9 samples.

Results

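Glucocorticoid signalling in the mouse trigeminal ganglion (TG) was described through 7 genes: the receptor genes Nr3c1 and Nr3c2, the steroid-activating enzyme gene Hsd11b1, the cochaperone genes Fkbp4 and Fkbp5, and the noncoding genes AC154912.1 and AC154912.3, which lie inside Fkbp5. They were chosen by name, with earlier results of the same libraries known, so their own levels and differences are given as a description without a test. The 7 genes were 7 of 55180 listed genes and had 45 of 142497 listed transcripts. All 7 reached a mean of 0.1 FPKM (FPKM being the fragments of a transcript scaled to its length in kilobases and to the depth of the library), the minimum for testing.

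RNA was taken from the TG of male wild-type C57BL/6 mice, 8 weeks old by the study's methods. One temporomandibular joint (TMJ) of each mouse received 10 µl of saline or of complete Freund's adjuvant (CFA, 5 mg/ml, an oil emulsion that inflames the joint) under isoflurane. There were 3 libraries per group, each a pool of unilateral TG punches from 3 mice: saline replicates 1 to 3, CFA3D replicates 1 to 3 (day 3) and CFA6D replicates 4 to 6 (day 6). All saline libraries were labelled day 3, so CFA6D has no saline control of its own day, and both comparisons with saline share the same controls. Since replicates are pools of mice, p-values measure the spread between pools.

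Glucocorticoids are steroid hormones of the adrenal gland that are released in daily rhythm and under stress. They bind the glucocorticoid receptor, held in the cytoplasm by a chaperone complex of HSP90, p23 and a large immunophilin. FKBP51, the product of Fkbp5, lowers the affinity of the receptor for hormone, while FKBP52, the product of Fkbp4, favours its transport to the nucleus. The activated receptor binds palindromic DNA elements, and Fkbp5 is itself one of its best known induced genes. The mineralocorticoid receptor, encoded by Nr3c2, binds the same hormones with high affinity, and the enzyme 11β-HSD1, encoded by Hsd11b1, turns inert 11-dehydrocorticosterone into active corticosterone inside cells.

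The step between the lowest values put the depth at about 30000000 to 42200000 read pairs per library, so that 1 pair in 1 kb of transcript was worth 0.0237 to 0.0333 FPKM. The 10 sensory neuron markers summed to 2150 to 3172 FPKM in every library, so the labelled tissue was marked in each. A pair of libraries stood apart in cell markers. In CFA6D replicate 6 the 7 neutrophil markers summed to 2710 FPKM, against 25.3 to 141 in the others. In saline replicate 3 the 10 pituitary markers summed to 10719 FPKM, against 9.12 to 1120. Values or counts without these libraries are also given below. In CFA6D replicate 4 the listed lncRNA transcripts summed to 70260 FPKM, against 8151 to 8911 in the others. The omission of that pair keeps this library. Leaving out 1 library at a time kept the log2 difference of AC154912.1 on CFA6D from saline at 2.71 to 3.33. In bulk tissue, fewer cells of a type and less RNA per cell cannot be told apart.

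On CFA6D the FPKM listed for the noncoding RNAs AC154912.1, AC154912.3 and AC154912.5 inside Fkbp5 was several times that after saline. Reads of AC154912.3 and AC154912.5 cannot be told apart from reads of unspliced Fkbp5 RNA. For AC154912.1 the same holds if strand was not used in counting. The summed Fkbp5 level was higher on average with overlapping libraries. On CFA3D 0 of the 7 genes separated from saline in either direction, where the background of separated groups was 9.13% of gene sums, 8.27% of lncRNA transcripts and 8.67% of other noncoding transcripts. On CFA6D 2 of the 7, AC154912.1 and AC154912.3, lay above every saline library, where 5.78% of lncRNA transcripts, 5.12% of other noncoding transcripts and 10.7% of gene sums did so. Between the 2 days 3 of the 7 separated: the same noncoding pair lay higher on CFA6D (background 5.32% and 5.23%), and Nr3c1 lay lower (background 10.1% of gene sums). Because earlier results guided the choice of genes, nothing is read from these counts against their background.

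**Figure D1:**
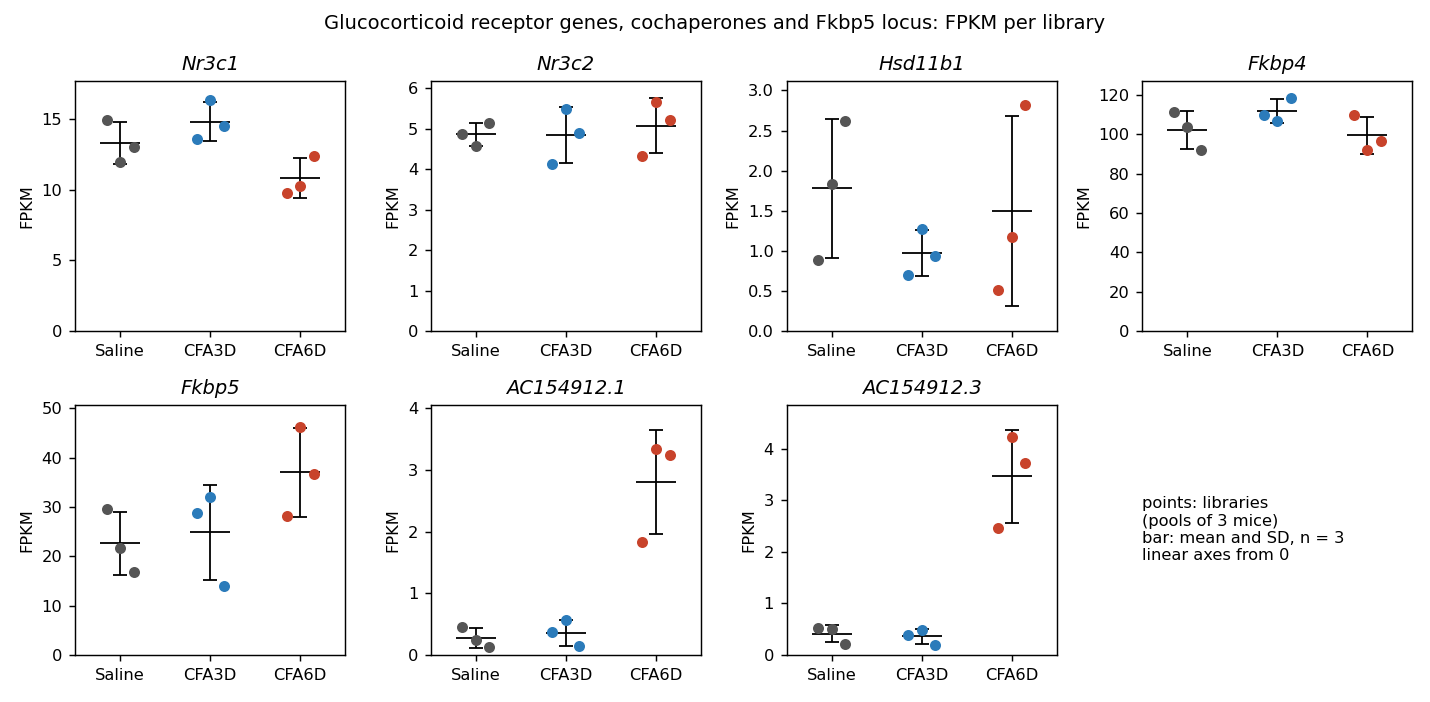
FPKM of the 7 genes in each library (y axes, linear from 0) by group (x axes), with the mean and SD of 3 libraries as bars. AC154912.1 and AC154912.3 on CFA6D sit at 1.83 FPKM or more and at 2.47 FPKM or more, above all 6 other libraries, whereas the groups of Nr3c2, Hsd11b1, Fkbp4 and Fkbp5 overlap.

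Nr3c1 (ENSMUSG00000024431; chr18:39410545-39519421, GRCm38, minus strand) encodes the glucocorticoid receptor. Its summed level was 14.9, 11.98 and 13.0 FPKM in saline replicates 1 to 3, 13.6, 16.3 and 14.5 FPKM on CFA3D, and 9.74, 10.2 and 12.4 FPKM on CFA6D. The CFA6D libraries were below all CFA3D libraries and overlapped saline only through replicate 6. The log2 difference from saline was 0.16 on CFA3D and -0.30 on CFA6D, and that between the days was -0.46 (SE 0.12 each, limma). When saline replicate 3 and CFA6D replicate 6 were both left out, these differences were 0.14, -0.42 and -0.56. Rescaling each library to the same total over all tables raised the median of all gene sums on CFA6D from 0.03 to 0.26, and Nr3c1 then stood at -0.06.

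The transcripts of Nr3c1 were assigned differently in 1 library. Nr3c1-203, the main form, held 6.06 to 9.84 FPKM in saline replicates 1 and 2 and on CFA3D and 5.49 to 7.50 FPKM on CFA6D, but 0.219 FPKM in saline replicate 3. There Nr3c1-204 held 4.11 FPKM and Nr3c1-201 held 2.76 FPKM. In the other 8 libraries Nr3c1-204 stayed at 0.588 FPKM or less and Nr3c1-201 was listed at 0. Nr3c1-208, a shorter coding transcript, was at 1.63 to 2.44 FPKM on CFA6D, 2.87 to 5.05 on CFA3D and 2.01 to 3.16 after saline. Only the gene sum is therefore compared between groups, since the top transcript alone gave log2 differences of 1.52 and 1.27 from saline through that library. Nr3c1-206, a short coding fragment, held 0.652 to 2.32 FPKM across all libraries.

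Nr3c2 (ENSMUSG00000031618; chr8:76899442-77245012, plus strand) encodes the mineralocorticoid receptor. It stood at 4.87, 4.58 and 5.14 FPKM after saline, 4.12, 5.50 and 4.91 FPKM on CFA3D and 4.34, 5.67 and 5.22 FPKM on CFA6D. All 3 groups overlapped, with log2 differences of -0.01 on CFA3D and 0.05 on CFA6D (SE 0.14). Its main transcripts Nr3c2-204 (1.54 to 2.15 FPKM) and Nr3c2-203 (0.791 to 1.66 FPKM) overlapped between groups as well. So did Nr3c2-206, at 0.417 to 1.37 FPKM, and Nr3c2-207, at 0.319 to 0.676 FPKM. The ratio of Nr3c1 to Nr3c2, both per length, was 3.06, 2.61 and 2.53 after saline, 3.30, 2.97 and 2.96 on CFA3D, and 2.24, 1.81 and 2.38 on CFA6D. On CFA6D the glucocorticoid receptor transcript thus exceeded the mineralocorticoid one by a smaller factor than in any other library. This ratio is taken within a library and does not change with its scaling.

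Hsd11b1 (ENSMUSG00000016194; chr1:193221634-193264075, minus strand) was the lowest of the 5 protein-coding members. It stood at 0.893, 1.83 and 2.62 FPKM after saline, 0.699, 1.28 and 0.942 FPKM on CFA3D and 0.516, 1.18 and 2.82 FPKM on CFA6D. The spread within the saline and CFA6D groups was wider than any difference between groups (log2 -0.73 and -0.39 from saline, SE 0.55). Both libraries that stand apart were the highest of their groups, and without them the CFA6D difference was -0.64. Its main transcript Hsd11b1-201 held 0.143 to 1.69 FPKM over all libraries, Hsd11b1-205 held 0 to 0.931 FPKM and Hsd11b1-203 held 0.465 FPKM or less. Fibroblast and meningeal markers, 9 genes, summed to 825, 2049 and 2423 FPKM in CFA6D replicates 4 to 6, the same order as Hsd11b1 in that group, and to 1050, 2175 and 1593 FPKM on CFA3D, again in the order of Hsd11b1. Over saline replicates 1 to 3 they summed to 1573, 874 and 1891 FPKM, with the highest sum and the highest Hsd11b1 in replicate 3. Saline replicates 1 and 2 went the other way, with the lower Hsd11b1 beside the higher marker sum in replicate 1. Their part in the Hsd11b1 values was not tested.

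Fkbp4 (ENSMUSG00000030357; chr6:128429735-128438677, minus strand) was the most abundant member per length. It stood at 111, 104 and 92.1 FPKM after saline, 110, 107 and 118 FPKM on CFA3D and 110, 92.1 and 96.4 FPKM on CFA6D. The groups overlapped, with log2 differences of 0.13 on CFA3D and -0.04 on CFA6D (SE 0.10). One transcript, Fkbp4-201, held 88.0 to 114 FPKM of the sum.

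Fkbp5 (ENSMUSG00000024222; chr17:28399094-28517527, GRCm38, minus strand) spans 118434 bp. Its annotation holds 15 transcripts in these tables, 4 of them at 0 in every library. The abundant full-length coding forms begin at either of 2 start sites that lie 31375 bp apart: Fkbp5-201 at the proximal one, Fkbp5-202 and Fkbp5-206 at the distal one. A further full-length form, Fkbp5-209, begins between them and held 0.252 FPKM or less in every library. Intron 4 of the distal form, 46851 bp long, holds the proximal start, AC154912.3 and AC154912.1. AC154912.1 (ENSMUSG00000117084; chr17:28446500-28456457, plus strand) is an antisense RNA of 3 exons, and AC154912.3 (ENSMUSG00000117294; chr17:28457484-28461095, minus strand) is a single exon of 3612 bases whose coding status the annotation leaves undecided. A further single-exon noncoding gene, AC154912.5 (chr17:28424723-28426430, minus strand), lies in intron 8. None of these 3 shares an exonic base with an exon of Fkbp5.

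The glucocorticoid response element was searched as a palindrome of 15 bases, the arms AGAACA and TGTTCT with any 3 bases between them, which reads the same on both strands. The 118434 bp of Fkbp5 held 2 exact matches, neither within an annotated exon. They are shown, with 45 bases on each side, because they lie in the same introns as the noncoding RNAs of the locus. Both are from the RefSeq assembly GRCm38.p6 on the minus strand, the strand of Fkbp5, with the element in capitals. The first is at chr17:28442419-28442433 (window 28442374 to 28442478) in intron 4, 4067 bp from AC154912.1 and 705 bp upstream of the annotated start of the transcript Fkbp5-210. The second is at chr17:28420321-28420335 (window 28420276 to 28420380) in intron 8, 4388 bp from AC154912.5.
intron 4 element: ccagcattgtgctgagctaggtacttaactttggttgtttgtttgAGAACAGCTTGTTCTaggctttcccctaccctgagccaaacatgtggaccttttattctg
intron 8 element: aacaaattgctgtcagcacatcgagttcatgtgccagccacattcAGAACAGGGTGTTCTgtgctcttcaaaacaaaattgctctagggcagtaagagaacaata

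The whole assembly held 639 such matches, 25 of them on chromosome 17. Of 22208 windows of the length of Fkbp5, 2.79% held at least 1 match and 16 (0.0720%) held at least 2. Among 21938 protein-coding genes 8 held at least 2, and among the 2078 within a factor of 1.5 of its length Fkbp5 was the one gene that did. Promoter windows of 300 bases (250 before and 50 after a gene's start) were given for Hsd11b1, Fkbp4, Nr3c2 and Fkbp5. None of these 4 windows held the element, which was in 0.00913% of 32851 promoter windows, or the single arm TGTTCT on either strand, which was in 19.0%. A match is a run of letters and no measure of receptor binding.

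**Figure D2:**
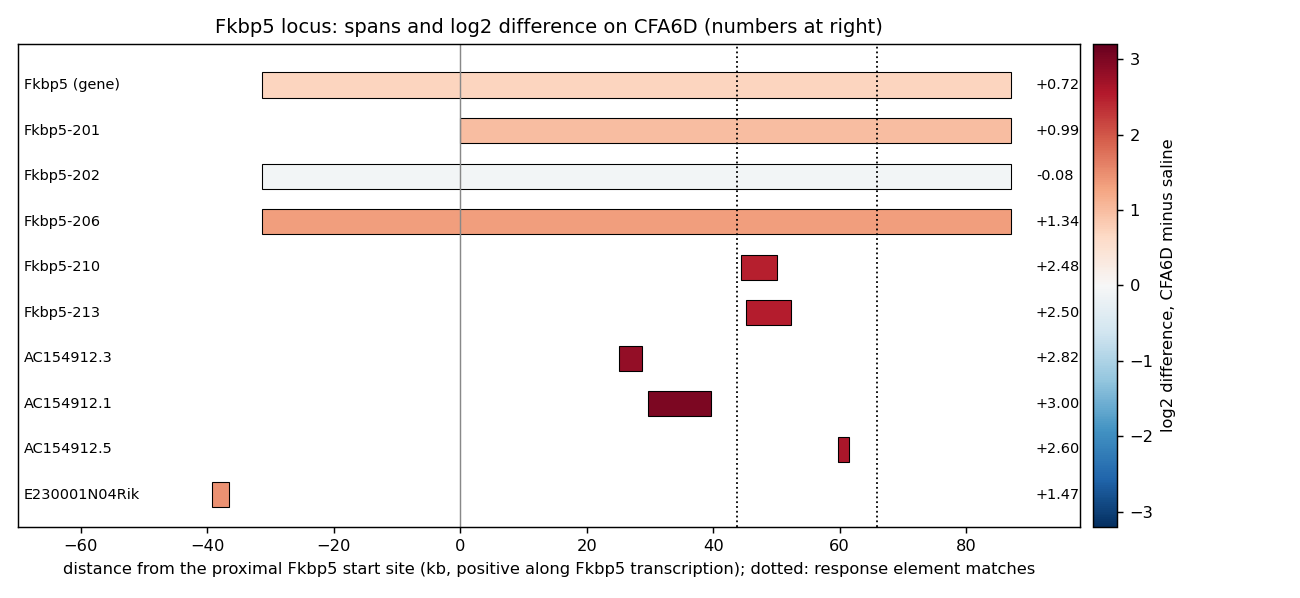
Spans of the Fkbp5 gene, its main transcripts and the noncoding genes in and beside it (bars) by distance from the proximal start (x axis, kb, positive along Fkbp5 transcription), coloured by the log2 difference of CFA6D from saline, which is also printed at the right. Dotted lines mark the 2 response element matches. The darkest bars, at 2.48 to 3.00, all lie between the proximal start and the match in intron 8, whereas the whole gene stands at 0.72.

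The summed Fkbp5 level was 29.5, 21.6 and 16.8 FPKM after saline, 28.8, 32.0 and 13.9 FPKM on CFA3D and 28.2, 46.3 and 36.8 FPKM on CFA6D. CFA6D replicates 5 and 6 were the highest of all 9 libraries, but replicate 4 lay below saline replicate 1. The log2 difference from saline was 0.09 on CFA3D and 0.72 on CFA6D, and that between the days was 0.63 (SE 0.33 each, limma). Without saline replicate 3 and CFA6D replicate 6 the CFA6D difference from saline was 0.51. The difference between the days rested in part on CFA3D replicate 3, and leaving out 1 library at a time moved it between 0.26 and 0.86.

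The antisense RNA AC154912.1 was at 0.450, 0.238 and 0.134 FPKM after saline, 0.366, 0.558 and 0.142 FPKM on CFA3D and 1.83, 3.34 and 3.25 FPKM on CFA6D. AC154912.3 was at 0.522, 0.498 and 0.222 FPKM after saline, 0.389, 0.494 and 0.196 FPKM on CFA3D and 2.47, 4.22 and 3.72 FPKM on CFA6D. For both RNAs each CFA6D library was more than 3 times the highest of the other 6. The mean on CFA6D was 10.3 times that of saline for AC154912.1 and 8.39 times for AC154912.3. On the log2(FPKM + 0.1) scale the differences from saline were 3.00 (SE 0.44) and 2.82 (SE 0.36) on CFA6D, and 0.26 and -0.16 on CFA3D. These values stood for about 11.2 to 48.3 read pairs of AC154912.1 and 25.5 to 70.4 of AC154912.3 in the libraries of saline and CFA3D, against 158 to 276 and 351 to 576 on CFA6D.

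As a scale for these sizes, a log2 difference of at least 2 was reached by 0.388% of 5672 lncRNA transcripts and 0.188% of 7989 other noncoding transcripts on CFA6D against saline. Neither of the libraries that stand apart carried the difference, which was 2.58 for AC154912.1 and 2.45 for AC154912.3 when both were left out. The libraries were made with a strand-specific kit by the study's methods, but the sources used here do not say whether strand was used in counting. If it was not, reads of AC154912.1 and reads of Fkbp5 RNA from the opposite strand were not separated. Reads of AC154912.3 and AC154912.5, which share the strand of Fkbp5, cannot be told apart from reads of unspliced Fkbp5 RNA that cross the same bases.

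The full-length coding isoforms and the other transcripts of Fkbp5 differed in how far they separated. The 4 full-length coding isoforms (Fkbp5-201, Fkbp5-202, Fkbp5-206 and Fkbp5-209) summed to 27.5, 19.6 and 16.1 FPKM after saline, 26.3, 29.9 and 13.5 on CFA3D and 22.6, 36.2 and 28.7 on CFA6D. These groups overlapped, with a CFA6D mean 1.39 times that of saline. The 7 other detected transcripts summed to 2.04, 1.96 and 0.713 FPKM after saline, 2.496, 2.17 and 0.416 on CFA3D and 5.56, 10.1 and 8.11 on CFA6D. Here every CFA6D library was above the other 6, with a mean 5.03 times that of saline. Of these 7, 4 were above every saline library on CFA6D, as was 1 of the 4 coding isoforms. That isoform was the scarce Fkbp5-209, at 0.0347 to 0.0724 FPKM after saline and 0.122 to 0.252 FPKM on CFA6D.

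Fkbp5-210, a coding form that begins inside intron 4, was at 0.742, 0.650 and 0.361 FPKM after saline and 2.72, 4.79 and 3.58 FPKM on CFA6D. Fkbp5-213, a noncoding form that begins in the exon that follows, was at 0.194, 0.502 and 0.142 FPKM after saline and 1.21, 2.97 and 1.84 FPKM on CFA6D. Neither overlapped saline or CFA3D, and their log2 differences from saline were 2.48 and 2.504. Only 271 of the 2431 bases of Fkbp5-210 and 228 of the 749 of Fkbp5-213 lie in exons of the full-length coding forms. Reads of their other bases cannot be told apart from reads of unspliced Fkbp5 RNA, so a rise of separate forms was not shown. Fkbp5-211 stood at 0.0199 to 0.207 FPKM after saline and 0.252 to 0.412 on CFA6D (log2 1.05). Fkbp5-204, annotated as retaining an intron, overlapped between groups at 0.845, 0.423 and 0.163 FPKM after saline, 1.46, 0.524 and 0.220 on CFA3D and 0.640, 1.07 and 1.70 on CFA6D. It lies at 28497343 to 28507406, upstream of the proximal start at 28486149, so RNA begun at that start does not cross it. Its values therefore do not bear on unspliced RNA from the proximal start. Fkbp5-215, a short noncoding form, was listed at 0 in 5 of the 9 libraries and reached 0.642 FPKM on CFA6D.

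Set against the full-length coding isoforms of the same library, the locus RNAs separated CFA6D from the other groups. AC154912.3 amounted to 1.90%, 2.53% and 1.38% of the coding isoforms after saline, 1.48%, 1.65% and 1.45% on CFA3D and 10.9%, 11.7% and 13.0% on CFA6D. AC154912.1 amounted to 0.832% to 1.87% over the libraries of saline and CFA3D and to 8.10%, 9.22% and 11.3% on CFA6D. Fkbp5-210 amounted to 0.665% to 3.31% in those 6 libraries and to 12.04%, 13.2% and 12.5% on CFA6D. The share of the locus RNAs was therefore higher on CFA6D also in replicate 4, whose Fkbp5 sum lay within the saline range. These are ratios of FPKM within a library, so they do not depend on how libraries were scaled.

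**Figure D3:**
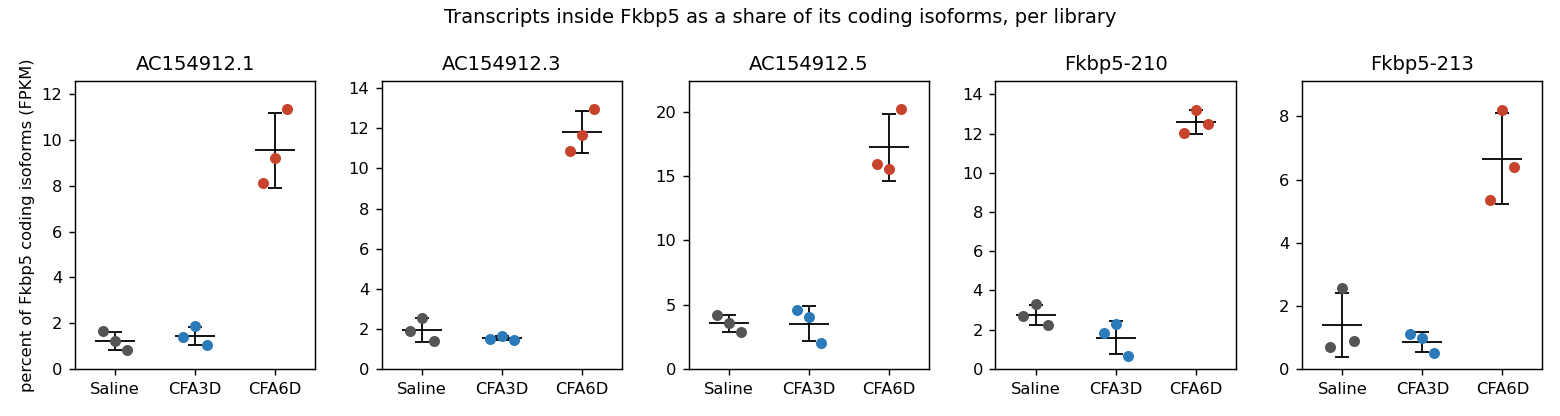
FPKM of AC154912.1, AC154912.3, AC154912.5, Fkbp5-210 and Fkbp5-213 as a percent of the summed full-length coding isoforms of Fkbp5 in the same library (y axes, linear from 0) by group (x axes), with the mean and SD of 3 libraries. All CFA6D points, from 5.36% for Fkbp5-213 upward, sit above all saline and CFA3D points of the same RNA, of which the highest is 4.55% for AC154912.5.

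The share of coding signal assigned to the distal first exon differed between libraries of each group. The distal forms Fkbp5-202 and Fkbp5-206 made up 0.98%, 1.00% and 80.7% of the coding isoforms in saline replicates 1 to 3. They made up 78.2%, 0.81% and 0.53% on CFA3D and 1.77%, 1.58% and 41.6% on CFA6D. In each group 1 library thus had a large distal share, while the other two had 1.77% or less. Log2 differences of single coding isoforms, such as 0.99 for Fkbp5-201 and 1.34 for Fkbp5-206 on CFA6D, follow these libraries. How FPKM was divided among overlapping isoforms is not given in the sources used here, so use of a start site and assignment of reads cannot be told apart.

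Genes around Fkbp5 were compared to see how far the difference reached along the chromosome. Within 200 kb lay 25 further genes, which gave 20 gene sums or transcripts that could be tested. Of these, 8 were higher and 2 lower on CFA6D at an unadjusted p under 0.05 (limma), against 8.21% and 2.85% of all gene sums, 3.23% and 3.51% of lncRNA transcripts and 3.24% and 3.13% of other noncoding transcripts. On CFA3D 0 were higher and 2 lower, against 3.64% and 0.807% of gene sums, 1.96% and 2.06% of lncRNA transcripts and 2.52% and 1.93% of other noncoding transcripts. Between the days 6 were higher and 1 lower on CFA6D, against 3.07% and 4.34%, 2.56% and 3.28%, and 2.34% and 3.10% in the same order. None of the 20 reached an adjusted p under 0.05 in any comparison. The locus was chosen with earlier results of these libraries known, so the counts and p-values of its neighbours are no independent evidence. The 10 calls on CFA6D fell to 5 without saline replicate 1, saline replicate 2 or CFA6D replicate 4 and to 6 without CFA6D replicate 6. The 7 calls between the days fell to 3 without CFA6D replicate 4 and to 4 without CFA3D replicate 2, CFA3D replicate 3 or CFA6D replicate 5.

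All tested neighbours past a log2 difference of 1 at that threshold lay inside Fkbp5 or within 8805 bp of it. Not all neighbours that near differed from saline: Gm22146 inside Fkbp5 stood at 0.13 on CFA6D (0.0709 to 4.20 FPKM). The pseudogene AC154912.4, 2481 bp from Fkbp5, stood at 0.12, and both overlapped saline. Against CFA3D, however, AC154912.4 was higher in every CFA6D library (log2 0.93, unadjusted p = 0.0278, adjusted p = 0.869, limma). That call was lost without CFA6D replicate 6. AC154912.5 was at 1.15, 0.707 and 0.455 FPKM after saline, 1.198, 1.2005 and 0.270 on CFA3D and 3.60, 5.64 and 5.80 on CFA6D. Its CFA6D libraries were all above the others, with a log2 difference from saline of 2.60 (SE 0.50, unadjusted p = 0.000498, adjusted p = 0.237, limma). Without saline replicate 3 and CFA6D replicate 6 the difference was 2.20 (unadjusted p = 0.00992, adjusted p = 0.722, limma). E230001N04Rik, a lincRNA that begins 5196 bp upstream of the distal start on the plus strand, had 2 tested transcripts. The more abundant was at 0.970, 0.947 and 1.29 FPKM after saline, 0.938, 1.44 and 0.634 on CFA3D and 2.59, 3.79 and 3.04 on CFA6D. It also separated fully, with a log2 difference from saline of 1.47 (SE 0.28, unadjusted p = 0.000447, adjusted p = 0.237, limma), and with both libraries left out the difference was 1.61 (adjusted p = 0.528, limma).

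The second E230001N04Rik transcript rose from 0 to 0.322 FPKM after saline to 0.772 to 1.42 on CFA6D (log2 2.29, unadjusted p = 0.00909, adjusted p = 0.600, limma). Gm20109, a lincRNA that overlaps this gene on the other strand, had a log2 difference of 1.39 (adjusted p = 0.709, limma), and Gm25195, annotated as a miRNA gene, had 1.89 (adjusted p = 0.683, limma). Their CFA6D values of 0.190 to 0.697 FPKM are near the limit of detection, and reads of Gm20109 and E230001N04Rik were separated only if strand was used in counting, which is not given in the sources used here. Gm20109 did not pass without CFA6D replicate 6, alone or together with saline replicate 3.

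Protein-coding neighbours differed by less than 1 on the log2 scale. Tead3, a transcription factor of the Hippo pathway, was at 4.57, 5.03 and 4.40 FPKM after saline and 7.82, 8.001 and 5.12 on CFA6D (log2 0.55). Slc26a8, an anion transporter gene, stood at 0.71 and Srpk1, a splicing factor kinase gene, at 0.22. Zfp523 and the ribosomal protein gene Rpl10a were lower by -0.26 and -0.29. Zfp523 and the pseudogene AC154912.4 were lower on CFA3D, by -0.37 and -0.81. Of the 10 calls on CFA6D 6 kept p under 0.05 without saline replicate 3 and CFA6D replicate 6, and Slc26a8, Srpk1 and Zfp523 did not. Tead3 did not pass without saline replicate 3 alone, nor did AC154912.4 on CFA3D without either or both. All of these had an unadjusted p under 0.05 and an adjusted p of 0.385 or more (limma). The other tested neighbours (Def6, Ppard, Fance, Lhfpl5, Mapk14, AC126937.1, CT025652.1, CT025652.2 and Gm22146) did not pass that threshold against saline on either day, and Ppard stood at 0.24 on CFA6D with all libraries above saline.

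Beyond the locus, 8 lists of genes of the pathway were examined, with 95 of 103 distinct genes testable. At an unadjusted p under 0.05 (limma on gene sums), 4 of the 95 differed on CFA3D, 25 on CFA6D and 23 between the days, against 4.45%, 11.1% and 7.41% of 16110 gene sums. None had an adjusted p under 0.05 in any comparison, as was so for all gene sums. Of the 25 calls on CFA6D 17 kept p under 0.05 without saline replicate 3, 21 without CFA6D replicate 6 and 16 without both. Of the 23 between the days 23, 17 and 15 did so. The lists were chosen with earlier results of these libraries known, so their counts and p-values are no independent evidence. The CFA3D count was 7 without saline replicate 1, 1 without saline replicate 2, 8 without CFA3D replicate 1 and 2 without CFA3D replicate 2.

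Genes known to be induced by glucocorticoids made up 12 of the 25 on CFA6D. Of 20 tested, 0 differed on CFA3D in either direction, beside 4.45% of all gene sums. Their median log2 difference was 0.02 beside 0.05 over all gene sums. On CFA6D 12 rose (60%, beside 8.21% of all gene sums) and 0 fell against saline, with a median of 0.71 beside 0.03. On that day 13 lay above every saline library, beside 10.7% of all gene sums. Between the days 8 rose (40%, beside 3.07%) and 0 fell, with a median of 0.60. The 8 became 12 after quantile normalization, 15 after rescaling each library to the same total and 11 after rescaling to equal mRNA sums, where the 12 against saline became 11, 16 and 11. In the same settings 3.71%, 7.66% and 3.85% of all gene sums rose between the days, and 6.16%, 21.7% and 7.56% against saline. Without saline replicate 3 the CFA6D count was 8 up and 1 down, without CFA6D replicate 6 it was 15 up, and without both it was 9 up and 0 down with a median of 0.55.

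Ddit4, which encodes the mTORC1 inhibitor REDD1, was at 26.3, 24.3 and 16.9 FPKM after saline, 26.4, 27.2 and 16.4 on CFA3D and 69.4, 79.1 and 63.0 on CFA6D. Each CFA6D library was more than 2 times any other, and the log2 difference from saline was 1.66 (SE 0.22, unadjusted p = 2.51e-05, adjusted p = 0.0732, limma). Arid5b, a chromatin regulator gene, was at 7.30, 7.94 and 10.6 FPKM after saline, 7.71, 7.22 and 8.90 on CFA3D and 20.04, 18.6 and 17.7 on CFA6D. Its CFA6D libraries were also above every other library, by a smaller factor, with a difference from saline of 1.13 (SE 0.14, unadjusted p = 1.69e-05, adjusted p = 0.0732, limma). Without saline replicate 3 and CFA6D replicate 6 the adjusted p was 0.0983 for Ddit4 and 0.0290 for Arid5b (limma).

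Sgk1, a kinase gene that acts on sodium channels and is induced by both steroid receptors, was at 33.0, 27.0 and 17.2 FPKM after saline and 49.6, 67.2 and 58.9 on CFA6D (log2 1.22, adjusted p = 0.156, limma). The clock gene Per1 was at 14.6, 11.9 and 8.76 FPKM after saline and 23.2, 26.5 and 25.2 on CFA6D (log2 1.11, adjusted p = 0.202, limma). Nfkbia, which encodes the NF-κB inhibitor IκBα, was at 15.9, 14.6 and 12.1 FPKM after saline and 27.7, 34.5 and 32.2 on CFA6D (log2 1.15, adjusted p = 0.104, limma). For all 3 the CFA6D libraries were above every saline library. Pdk4, a gene of fuel switching in mitochondria, was not past a log2 difference of 1 against saline (0.86) but was against CFA3D (1.19, unadjusted p = 0.00337, adjusted p = 0.580, limma).

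Tsc22d3, which encodes the anti-inflammatory GILZ, Klf9, Dusp1, Cebpd, Errfi1 and Map3k6 also rose on CFA6D at an unadjusted p under 0.05, by 0.53 to 0.78. Without saline replicate 3 Tsc22d3 stood at 0.40 (unadjusted p = 0.179, limma), and Klf9, Map3k6 and Pdk4 did not pass either. Without both libraries Tsc22d3, Klf9 and Dusp1 did not pass, and Tsc22d3 also missed the threshold after quantile normalization or rescaling to equal mRNA sums. The metallothionein genes Mt1 and Mt2 stood at -0.30 and -0.13 and Angptl4 at -0.45, none past the threshold. Lcn2 stood at 1.59 without passing it and rested on CFA6D replicate 6, at 132 FPKM against 5.05 to 11.4 in the other 8 libraries. That is the library with the high neutrophil markers.

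Within groups, many genes of the list were lowest or highest in the same library. Saline replicate 3 was the lowest saline library for 12 of the 20 genes (60%, beside 39.7% of all gene sums). CFA3D replicate 3 was the lowest of its group for 15 (75%, beside 42.0%), and CFA6D replicate 5 the highest of its group for 17 (85%, beside 29.8%). Fkbp5, AC154912.1 and AC154912.3 were each lowest in the same saline and CFA3D libraries and highest in the same CFA6D library. At the other ends the order differed. On CFA6D the list was most often lowest in replicate 6 (11 genes, 55%, beside 25.1%), but Fkbp5 and both RNAs were lowest in replicate 4. On CFA3D the list was most often highest in replicate 1 (10 genes, 50%, beside 20.4%), but Fkbp5 and both RNAs were highest in replicate 2. Genes of a library share its RNA, so these shares are a description.

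**Figure D4:**
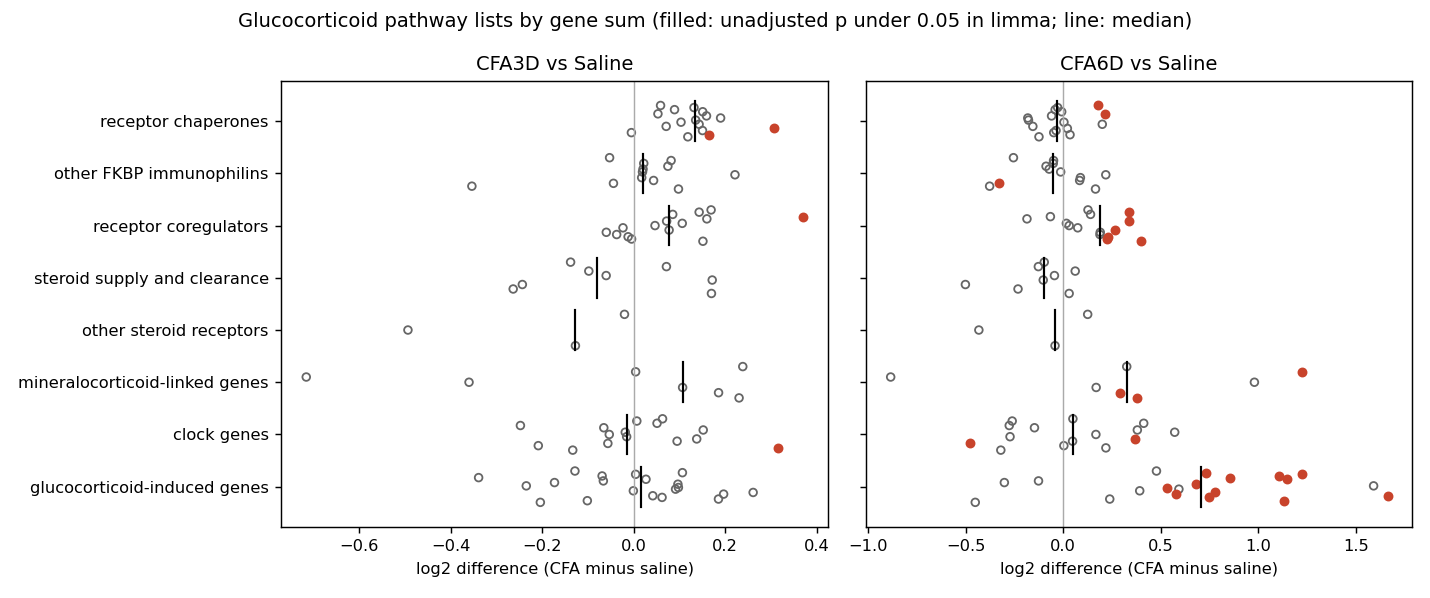
Log2 difference from saline (x axes) of each tested gene of the 8 pathway lists (rows) on CFA3D and on CFA6D. Filled points have an unadjusted p under 0.05 in limma and black lines are list medians. The glucocorticoid-induced genes have a median of 0.71 on CFA6D and 0.02 on CFA3D, whereas the medians of the receptor chaperones and other FKBP immunophilins on CFA6D are -0.03 and -0.05.

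Chaperones of the receptor complex passed the test against saline in 4 instances. Of 16 tested, 2 rose on CFA3D (Dnajb1, log2 0.31, and Bag1, 0.17) and 2 on CFA6D (Ppp5c, a phosphatase of the complex, 0.22, and Stub1, a ubiquitin ligase gene, 0.18), which is 12.5% of them on each day beside 3.64% and 8.21% of all gene sums. All 4 calls were lost when both libraries that stand apart were left out. Between the days 5 fell and 0 rose (31.25%, beside 4.34%), among them Hsph1 (-0.37, unadjusted p = 0.00750) and Ahsa1 (-0.24, unadjusted p = 0.0113), both with an adjusted p of 0.614 (limma). The direction depended on the scaling: quantile normalization gave 0 higher and 2 lower on CFA6D against saline, and 2 were higher and 0 lower between the days after rescaling each library to the same total. Hsp90aa1, the inducible HSP90, stood at 186 to 200 FPKM after saline and 171 to 178 on CFA6D, with a log2 difference of -0.16 that did not pass the test.

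Of 12 other FKBP immunophilins tested, 0 differed on CFA3D or between the days, beside 4.45% and 7.41% of all gene sums. On CFA6D 1, Fkbp14, fell (-0.33, unadjusted p = 0.0368, adjusted p = 0.412, limma), which is 8.33% beside 2.85%. That call was lost without both libraries. Fkbp1b stood at 0.22 on both days without passing the test. Among 15 receptor coregulators 1 rose on CFA3D, the orphan receptor gene Nr2f2 (0.37), which is 6.67% beside 3.64% of all gene sums. On CFA6D 6 rose, by 0.23 to 0.40 (40%, beside 8.21%). The 6 became 3 after quantile normalization (20%, beside 6.16%) and 8 after rescaling to the same total (53.3%, beside 21.7%). The smallest p-values on CFA6D belonged to Smarca4, the ATPase of a chromatin remodelling complex (0.34, unadjusted p = 0.00280, adjusted p = 0.181, limma), and the coactivator gene Ncoa1 (0.27, unadjusted p = 0.00439, adjusted p = 0.205, limma). Between the days 4 coregulators rose and 2 fell (26.7% and 13.3%, beside 3.07% and 4.34% of all gene sums).

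Of 14 genes of steroid supply and clearance, 8 were above the minimum level. Of these 0 differed from saline on either day, beside 4.45% and 11.1% of all gene sums. Fdx1, an electron carrier of steroid synthesis, fell between the days (-0.27, unadjusted p = 0.0177, adjusted p = 0.642, limma), which is 12.5% beside 4.34%. It did not pass without CFA6D replicate 6. Hsd11b2, which inactivates corticosterone, stood at 0.440 to 0.687 FPKM in all libraries, and Abcb1a, an exporter of steroids, at 6.03 to 10.6 FPKM. The corticosteroid synthesis genes Cyp11b1 and Cyp21a1 were below 0.1 FPKM in every library. Of the other steroid receptor genes 3 of 4 were testable and 0 differed in any comparison (Esr1, log2 -0.43 on CFA6D). Esr1 was at 6.43 FPKM in saline replicate 3 and 1.93 to 2.84 in the other libraries.

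Among 7 tested genes linked to mineralocorticoids 0 differed on CFA3D, beside 4.45% of all gene sums. On CFA6D 3 rose (42.9%, beside 8.21%), among them Sgk1 and the sodium pump gene Atp1b1 (0.29). Atp1b1 did not pass without either library or both. Scnn1a, a sodium channel subunit gene, passed the test only between the days (1.34, unadjusted p = 0.0165, adjusted p = 0.642, limma), and Scnn1b stood at -0.88 on CFA6D without passing it. Of 15 clock genes 1, Bhlhe41, rose on CFA3D (0.32), which is 6.67% beside 3.64% of all gene sums. On CFA6D Cry2 rose (0.37, unadjusted p = 0.00417, adjusted p = 0.202, limma) and Clock fell (-0.48, unadjusted p = 0.00450, adjusted p = 0.208, limma). Each is 6.67% of the list, beside 8.21% of all gene sums higher and 2.85% lower. Dbp, an output gene of the clock, stood at -0.27 on CFA6D without passing the test.

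The genes whose pattern over the 9 libraries was most like that of Fkbp5, among 13184 gene sums of at least 1 FPKM, were Slit3, Aff1, Klf9, Rasl11b and Tmpo (Pearson r of 0.974, 0.974, 0.967, 0.966 and 0.966 on the log2 scale). Of these Klf9 is on the list of induced genes. For Nr3c1 they were Tsn, Wdr53, Slc39a7, Cyb5a and Ints10 (r of 0.980, 0.973, 0.965, 0.954 and 0.944). These values are the highest of many and describe the same 9 libraries. Markers of other cell types also moved on CFA6D. All 7 neutrophil markers rose against CFA3D (beside 3.07% of all gene sums) and 2 of 7 against saline (28.6%, beside 8.21%). They summed to 141, 129 and 2710 FPKM in CFA6D replicates 4 to 6 and 25.3 to 122 FPKM in the others. Of 7 macrophage markers 1 fell against saline (14.3%, beside 2.85%), with a sum of 50.9 to 82.7 FPKM on CFA6D and 88.0 to 108 FPKM after saline. Of 9 fibroblast and meningeal markers 3 fell against saline and 3 against CFA3D (33.3% each, beside 2.85% and 4.34%). Of 10 sensory neuron markers 3 rose against saline (30%, beside 8.21%). Pituitary markers summed to 43.5 to 1120 FPKM on CFA6D and 14.4 to 21.2 FPKM on CFA3D, with 0 of 10 past the test. The part of these cells in the values above was not tested. The AC154912.1, AC154912.3 and AC154912.5 differences given without CFA6D replicate 6 and saline replicate 3 remained at 2.20 or more on the log2 scale. That omission is no test of cell types. It keeps CFA6D replicates 4 and 5, whose neutrophil and pituitary sums were also above every CFA3D library.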

How the data were processed

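RNA of 9 pooled TG libraries (3 saline, 3 CFA3D, 3 CFA6D) was analysed. The deposited values are FPKM per transcript in 3 tables (mRNA, lncRNA, other noncoding), made by the authors; how FPKM was computed is not given in the sources used here. The study's methods name Trimmomatic, GRCm38 and CLC Genomics Workbench, while the submitters' processing notes name Bowtie 0.12.2 and mm8. Transcript identifiers were joined to GENCODE release M21 (GRCm38), and FPKM was summed per gene for mRNA. No column was left unused (0 columns). Groups came from the labels.

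Log2(FPKM + 0.1) was fitted with limma 3.58.1 in R 4.3.3 (group means, trended variance, all 9 libraries, mean FPKM of at least 0.1), with Benjamini-Hochberg adjustment over all features of a table. Differences understate changes at low levels. The fit was tested on simulated data. An exact permutation test of 3 against 3 libraries cannot go below p = 0.1 and was not used. The members and lists were chosen with earlier results of these data known, so members have no p-value. The p-values of list genes and of neighbours of Fkbp5 are no independent evidence. Named were members, transcripts with at least 10% of a gene's sum or past p 0.05 and log2 1, tested neighbours within 200 kb, and list genes past those thresholds or else the 2 with the smallest p. Other list genes were chosen as examples after their values were seen. Some list genes are not reported here by name. Depth was read from the step between low values, and counting error adds to the spread between pools.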

Additional observations from a re-analysis of the deposited data

Results flagged for a closer look

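The summed level of Nr3c1 was on average higher than saline on CFA3D (log2 difference 0.157) and lower on CFA6D (-0.299), and every CFA6D library was below every CFA3D library. The opposite sign of these values was not tested, since Nr3c1 was chosen with earlier results known, and both values share the same saline libraries. The SE of each value was 0.12, and saline overlapped both days.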

How the results depend on the processing

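No alternative turned the sign of AC154912.1 or AC154912.3 on CFA6D or of Nr3c1 between the days. With a pseudocount of 1 the CFA6D differences from saline fell to 1.56 for AC154912.1 and 1.65 for AC154912.3. The cause of the shifts below was not tested unless the setting itself names it. On CFA3D the count of neighbours past the threshold (2) was 1 with a pseudocount of 1, a minimum of 1 FPKM, no minimum, only the groups compared, the top transcript in place of the gene sum, or both divergent libraries left out, and 0 after rescaling to the same total. The count of pathway genes (4) was 2 after that rescaling and 7 with the top transcript, and 1 member in place of 0 separated with both libraries left out. On CFA6D against saline the neighbour count (10) was 6 with a minimum of 1 FPKM, with the top transcript or with both libraries left out, and 4 members in place of 2 separated after rescaling to the same total. Between the days the neighbour count (7) was 3 with a minimum of 1 FPKM.

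Leaving out 1 library at a time moved the neighbour counts between 1 and 2, 5 and 9, and 3 and 7 (CFA3D, CFA6D and between the days), the pathway counts between 1 and 8, 19 and 30, and 19 and 26, and the members that separated between 0 and 3, 2 and 4, and 3 and 5. With the replicate number as a block for saline and CFA3D, 1 pathway gene and 1 neighbour passed. Deviations of libraries of the same number had correlations of 0.088, -0.078 and 0.030, beside -0.109 to 0.059 for pairs of unlike number. With 3 pools per group these values cannot exclude a pairing, and none was used in the main fit. Hsd11b1 turned to 0.15 on CFA6D without CFA6D replicate 4. Of all gene sums 1323 were higher and 459 lower on CFA6D at an unadjusted p under 0.05, against 992 and 986 after quantile normalization and 3447 and 40 after rescaling to the same total. The rescaling to equal mRNA sums and the joint omission of both libraries were chosen after seeing the data. With 3 pools per group and a saline control of day 3 only, day and treatment cannot be told apart on CFA6D.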
